A study of Mus musculus with 14 samples.

Results

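The transcription factors that give microglia their identity were followed as a set of 9 genes, Spi1, Irf8, Sall1, Mef2a, Mef2c, Maf, Runx1, Cebpa and Cebpb. They were taken by gene symbol from the 14329 genes of the deposited values. All 9 were measured, and all 9 passed the filter on low counts together with 12645 genes in all. Microglia came from the dorsal spinal cord of 6-month-old male and female mice, at day 5 after serum transfer (ST). For each sample, 2000 sorted CD45low CD11b+ CX3CR1+ cells were used. TASTPM mice are heterozygous for 2 transgenes, TAS10 (human APP with the Swedish mutation) and TPM, both under the murine Thy-1 promoter, which is active in neurons rather than in microglia. WT mice came from backcrosses of the same C57BL/6 line and carry neither transgene. Mice of both genotypes received arthritogenic K/BxN serum (4 libraries each) or control serum (3 libraries each), so that every animal had been given serum. The sex of each library is not given in the labels.

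Microglial identity is built in layers by these factors. Spi1 (PU.1) is the pioneer ETS factor of the myeloid lineage and opens most macrophage enhancers, often together with Irf8. Sall1 is the zinc-finger repressor that sets microglia apart from other macrophages, while Mef2a and Mef2c, MADS-box factors, and Maf, a bZIP factor of quiescent tissue macrophages, hold the adult homoeostatic programme. Runx1 acts early in the lineage with its partner Cbfb, and the C/EBP factors Cebpa and Cebpb drive myeloid differentiation and the inflammatory response respectively.

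The promoters of 3 of the genes are shown because much of what follows concerns them, Spi1 for its level per length, the highest of the set, Cebpb for the largest serum difference over all libraries and Maf for the smallest unadjusted p in TASTPM. Each is the 250 bases before the start of the canonical transcript in GRCm39, read on the strand of the gene, and capitals mark matches to the motifs listed after them. Spi1 is at chr2:90926191-90926440 (+), inside an intron of longer Spi1 transcripts, Maf is at chr8:116434580-116434829 (-), and Cebpb is at chr2:167530585-167530834 (+).
Spi1: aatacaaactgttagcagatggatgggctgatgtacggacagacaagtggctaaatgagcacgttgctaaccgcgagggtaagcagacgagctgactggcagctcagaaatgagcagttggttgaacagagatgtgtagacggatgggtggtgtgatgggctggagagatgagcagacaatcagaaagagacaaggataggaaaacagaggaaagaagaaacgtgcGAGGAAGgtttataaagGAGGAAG
Maf: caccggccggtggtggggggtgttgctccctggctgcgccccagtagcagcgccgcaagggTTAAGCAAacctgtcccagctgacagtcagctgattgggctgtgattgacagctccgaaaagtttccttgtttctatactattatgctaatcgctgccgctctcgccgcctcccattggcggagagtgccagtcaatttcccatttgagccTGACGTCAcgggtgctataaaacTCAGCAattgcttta
Cebpb: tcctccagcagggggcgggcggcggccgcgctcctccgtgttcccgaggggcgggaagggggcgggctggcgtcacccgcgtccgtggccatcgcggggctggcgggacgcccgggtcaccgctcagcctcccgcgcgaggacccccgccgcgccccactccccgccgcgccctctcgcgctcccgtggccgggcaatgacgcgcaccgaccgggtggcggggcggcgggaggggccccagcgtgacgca
The motifs were searched on both strands, and they were GAGGAAG (ETS sites of the Spi1 kind, present in 10.3% of 21757 promoters of the same length), TTGCNNAA (C/EBP, 9.34%), TGACGTCA (CRE, 1.70%), GAAANNGAA (IRF, 7.56%), CTAAAAATA (MEF2, 0.437%), TGTGGT (RUNX, 13.03%), TGCTGA (MAF core site, 14.8%) and CACGTG (E-box, 6.26%). Spi1 held 2 matches to the ETS letters, the first beginning 24 bases before the start. Maf held a C/EBP match at 189 bases, a CRE at 38 bases and a MAF core site at 15 bases before its start, and none of the 8 sets of letters was in the Cebpb window. These are letter matches and were not tested as binding sites.

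Reads on genes ran from 14223015 to 20239175 per library. In 4 of the 8 K/BxN ST libraries, WT 1 and 2 and TASTPM 1 and 2, Lyz2 stood at 258065 to 536223 normalized counts, against 8743 to 22933 in the other 10. The defining monocyte gene Ly6c2 was at 12898 to 29133 in those 4 and at 2 to 18 in the other 10, although the sorting gate of the study drew cells without Ly6C and CCR2. All 15 monocyte markers were in the table and 9 passed the filter. Summed, they reached 394195 to 749548 in the 4 libraries and 9168 to 23723 in the 10. The 12 neutrophil markers, of which 5 passed, summed to 10440 to 235895 and 4066 to 11988, and the 10 microglia markers to 286186 to 671781 and 827607 to 1118890. Every microglia marker was above 0 in all 14 libraries. A score of Xist against Y-linked genes was below 0, the side of the Y-linked genes, in all 4 and in 4 of the other 10. The 5 red cell genes summed to 1513 to 41819 in WT Control ST, 676 to 2569 in WT K/BxN ST, 508 to 1205 in TASTPM Control ST and 1677 to 4571 in TASTPM K/BxN ST. The part of these genes in the results on the transcription factors was not tested. The serum fold changes of the factors and the medians of their target lists are therefore given with and without the 4 libraries. Because the samples are bulk RNA, fewer microglia in a sample and less RNA of a gene per microglial cell cannot be told apart.

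To set levels of different genes side by side, reads were expressed as RPKM, that is relative to the length of the longest annotated transcript and to the reads of the library. In the 6 Control ST libraries Spi1 had the highest level per length, 200.4 ± 24.4 RPKM (SD, n = 6), and it stood above Irf8, the next, in all 14 libraries. Irf8 was at 109 ± 23.3, Mef2c at 89.0 ± 19.6 and Mef2a at 86.7 ± 12.4 on the same scale. Irf8 exceeded Mef2c in 13 of 14 libraries, whereas Mef2c exceeded Mef2a in 7 of 14, so the order of the MEF2 factors was within their spread. Cebpb followed at 70.6 ± 39.2, the widest spread of the set, and exceeded Sall1 (34.1 ± 3.44) in 13 libraries. The lowest levels per length were those of Maf (25.5 ± 5.71), Cebpa (20.7 ± 7.06) and Runx1 (18.1 ± 5.23). Maf exceeded Cebpa in 8 of 14 libraries and Cebpa exceeded Runx1 in 10 of 14, and these neighbours overlapped. With the canonical transcript as the length, Maf was at 40.9 ± 9.16 and moved above Sall1 (in 6 of 14 libraries), Mef2a moved above Mef2c and Runx1 above Cebpa.

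**Figure D1:**
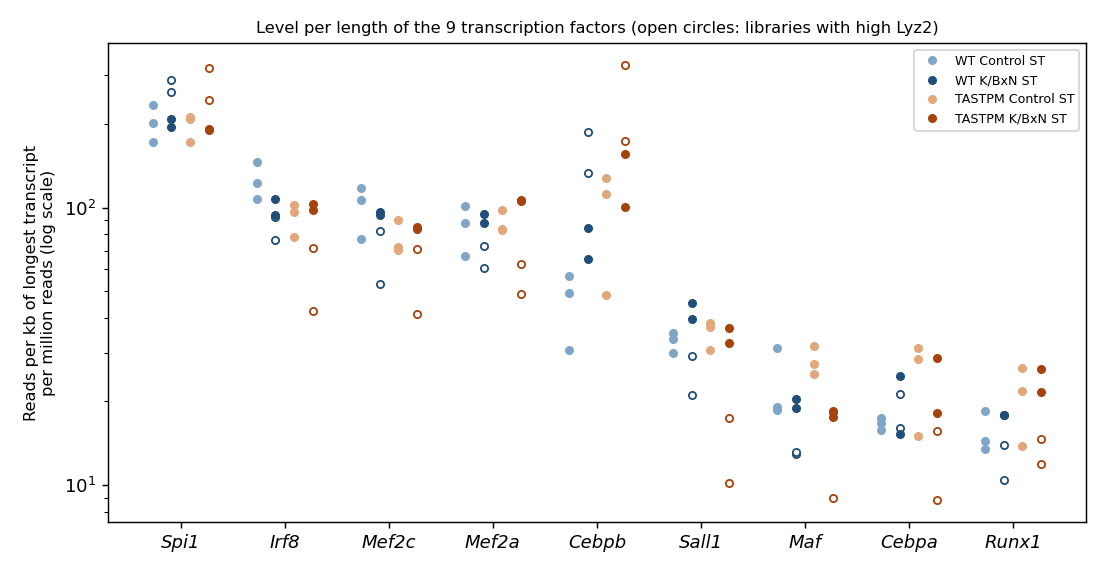
Levels per length of the 9 factors in all 14 libraries, as RPKM over the longest transcript, on a log axis, coloured by group, with open circles for the 4 libraries with high Lyz2. Spi1 lies above Irf8 in every library, and Cebpb runs from 30.6 to 326.

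Over all libraries the factors ranked between place 208 (Mef2c) and place 3351 (Cebpa) of 14329 genes by mean normalized count. The lowest number of reads of any factor in any library was 367 (Cebpa), so error from counting reads alone was small beside the spread between libraries. Error from the small input and its amplification was not measured. The pooled SD of log2 values within groups was 0.27 for Spi1, smaller than that of 93.7% of the genes tested. It was 0.66 for Cebpb and 0.56 for Sall1, against a median of 0.61 over all genes tested. Among the 5115 tested genes with a mean of 500 to 20000 normalized counts, 11.3% had a larger SD than Cebpb and 21.0% a larger one than Sall1, while 85.8% had a larger one than Spi1.

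The serum comparisons ask how inflammatory arthritis in the joints is mirrored in spinal microglia of each genotype. A gene was called at a Benjamini-Hochberg adjusted p below 0.05, over the 12645 genes tested with limma, and an absolute log2 fold change above 1. None of the 9 factors was called in WT, where 0.00791% of all genes were, and none in TASTPM, where the share of all genes was 0%. At an unadjusted p under 0.05, limma gave 1 factor in WT (Cebpb) and 2 in TASTPM (Cebpb and Maf), and 902 (7.13%) and 533 (4.22%) of the 12645 genes. With DESeq2 none of the factors was called either, where 1.01% of all genes were in WT (127 of 12625) and 0.127% in TASTPM (16 of 12625). With edgeR no gene was called in either genotype (0%), and 782 and 509 had an unadjusted p under 0.05. On the log2 scale 3 factors were higher and 6 lower in WT K/BxN ST, with a median difference of -0.12, and 2 were higher and 7 lower in TASTPM K/BxN ST, with a median of -0.22. The median over all genes tested was 0.06 in WT and 0.01 in TASTPM.

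**Figure D2:**
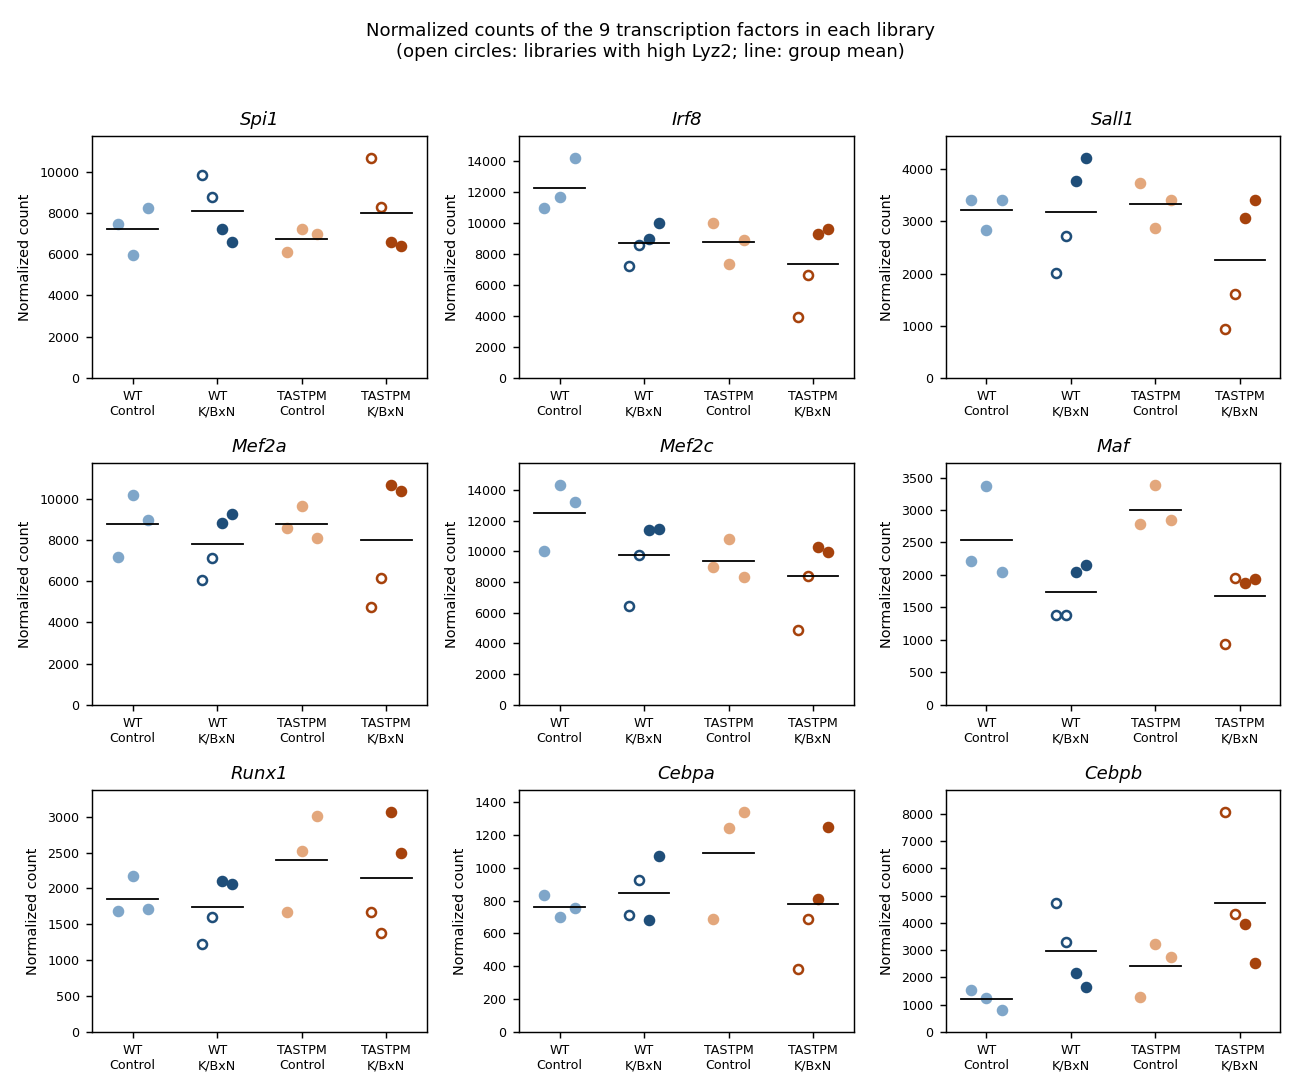
Normalized counts of each factor (vertical axes, from 0) in the 14 libraries by group, with a line at the group mean and open circles for the libraries with high Lyz2. Cebpb in WT K/BxN ST lies between 1630 and 4743, above all 3 WT Control ST libraries, and Maf in TASTPM K/BxN ST lies between 942 and 1957, below all 3 TASTPM Control ST libraries.

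Cebpb, the C/EBP factor of the inflammatory response, showed the largest difference of the set in both genotypes over all libraries. In WT its normalized counts were 1540, 1252 and 796 in Control ST and 4743, 3311, 2150 and 1630 in K/BxN ST. The groups did not overlap, as was so in this direction for 3.67% of all genes tested. The log2 fold change was 1.24 (SE 0.44, 95% interval 0.31 to 2.17), with a limma adjusted p of 0.629 over all genes and an adjusted p of 0.134 with DESeq2. In TASTPM the counts were 1269, 3213 and 2758 in Control ST and 8068, 4344, 3945 and 2511 in K/BxN ST. Here the lowest K/BxN ST library fell among the controls (no factor had all 4 above, against 2.67% of all genes), and the log2 fold change was 0.95 (SE 0.44, interval 0.01 to 1.88, limma adjusted p = 0.964). In both genotypes the libraries with high Lyz2 had the highest Cebpb. Without them the log2 fold change was 0.70 (interval -0.19 to 1.59) in WT and 0.49 (interval -0.40 to 1.38) in TASTPM. Both WT libraries left, at 2150 and 1630, lay above the 3 controls, which follows from all 4 doing so. With these 2 against 3 libraries, 9.71% of all genes lay higher without overlap. Scaling to the 10 microglia markers moved the median of all genes to 0.62 in WT and 0.61 in TASTPM. The Cebpb log2 fold change was then 1.81 (interval 0.21 to 3.41) in WT and 1.56 (interval -0.04 to 3.15) in TASTPM. Cebpb is a single exon gene at chr2:167530835-167532338 (+) in GRCm39, of which 312 exonic bases overlap Peds1 on the opposite strand, a gene that is in the table too.

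Cebpa, the lineage C/EBP factor, was at 702 to 832 in WT Control ST and at 683 to 1075 in WT K/BxN ST, and the log2 fold change was 0.13 (interval -0.62 to 0.89), or 0.17 (interval -0.61 to 0.94) without the libraries with high Lyz2. In TASTPM it was at 688, 1247 and 1341 in Control ST and at 382, 686, 808 and 1252 in K/BxN ST (log2 fold change -0.55, interval -1.30 to 0.21). The 2 lowest of these, 382 and 686, were the libraries with high Lyz2, and without them the log2 fold change was -0.06 (interval -0.83 to 0.72). Scaled to the microglia markers, the fold changes were 0.70 in WT and 0.06 in TASTPM, against medians of 0.62 and 0.61 over all genes. The intervals are wide, so a moderate change of Cebpa could not be detected with these libraries.

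Maf, the bZIP factor of resting tissue macrophages, was the factor with the smallest unadjusted p in TASTPM. Its normalized counts were 2785, 3384 and 2844 in TASTPM Control ST and 942, 1957, 1882 and 1938 in TASTPM K/BxN ST. All 4 K/BxN ST libraries lay below all 3 controls, as was so in this direction for 2.74% of all genes tested. The log2 fold change was -0.89 (SE 0.28, interval -1.50 to -0.29), with a limma p of 0.00655 before and an adjusted p of 0.964 after adjustment over all genes. Without the 2 TASTPM libraries with high Lyz2 it was -0.65 (interval -1.16 to -0.14, limma adjusted p = 0.996). The 2 libraries left, at 1882 and 1938, lay below the controls, which follows from all 4 doing so. With these 2 against 3 libraries, 9.32% of all genes lay lower without overlap. When all libraries were scaled to the microglia markers instead, the log2 fold change of Maf was -0.28 (interval -0.97 to 0.40), against a median of 0.61 over all genes. In WT, Maf was at 2212, 3369 and 2044 in Control ST and at 1385, 1386, 2043 and 2152 in K/BxN ST. The highest K/BxN ST library overlapped the controls, the log2 fold change was -0.54 (interval -1.14 to 0.06), and without the libraries with high Lyz2 it was -0.24 (interval -0.75 to 0.27). Maf lies at chr8:116409632-116434579 (-) and overlaps 2 genes on the opposite strand that are not in the table, by 557 exonic bases.

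Spi1 and Irf8 are partners on macrophage enhancers. Spi1 was at 5949 to 8244 normalized counts in WT Control ST and 6579 to 9875 in WT K/BxN ST, and at 6094 to 7208 and 6411 to 10673 in TASTPM. The log2 fold changes were 0.16 (interval -0.29 to 0.62) and 0.21 (interval -0.24 to 0.67), and they turned to -0.05 and -0.06 without the libraries with high Lyz2, which at 8277 to 10673 were the 4 highest of the 14. Scaled to the microglia markers they were 0.74 (interval -0.39 to 1.86) and 0.82 (interval -0.31 to 1.95), against medians of 0.62 and 0.61 over all genes. Irf8, the interferon regulatory factor that myeloid cells share, was at 10935, 11660 and 14186 in WT Control ST and at 7241, 8579, 8954 and 9980 in WT K/BxN ST. Here the groups did not overlap either, as was so in the downward direction for 3.71% of all genes tested, and the log2 fold change was -0.50 (SE 0.27, interval -1.07 to 0.08, limma adjusted p = 0.718). It was -0.37 (interval -0.75 to 0.02) without the libraries with high Lyz2. Scaled to the microglia markers it was 0.07, against a median of 0.62 over all genes. In TASTPM, Irf8 was at 10027, 7349 and 8892 in Control ST and at 3913, 6664, 9301 and 9606 in K/BxN ST, where only the libraries with high Lyz2 lay below all 3 controls. The difference of -0.32 (interval -0.90 to 0.25) became 0.12 without them.

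Sall1, the factor most specific to microglia among the 9, was at 3418, 2827 and 3407 in WT Control ST and at 2002, 2713, 3781 and 4215 in WT K/BxN ST. The 2 libraries with high Lyz2 were the lowest and the 2 others the highest of the 7. In those 2 others, 9.71% of all genes tested lay above all 3 controls. The log2 fold change of Sall1 was -0.07 (interval -0.87 to 0.73), and it became 0.32 (interval -0.09 to 0.73) without the libraries with high Lyz2. Scaled to the microglia markers it was 0.50 (interval -0.04 to 1.04), against a median of 0.62 over all genes. In TASTPM, Sall1 was at 3747, 2868 and 3404 in Control ST and at 937, 1615, 3062 and 3405 in K/BxN ST. The log2 fold change of -0.74 (interval -1.54 to 0.07, limma adjusted p = 0.964) rested on the libraries with high Lyz2, at 937 and 1615, and was -0.04 (interval -0.45 to 0.37) without them.

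Mef2a and Mef2c, which act on homoeostatic genes, showed the same split within the K/BxN ST groups. In WT K/BxN ST, Mef2a was at 6060 and 7123 where Lyz2 was high and at 8824 and 9267 elsewhere, and at 4752 and 6128 against 10653 and 10368 in TASTPM. Mef2c was at 6441 and 9775 against 11400 and 11443 in WT, and at 4869 and 8421 against 10257 and 9969 in TASTPM. The Mef2a log2 fold changes of -0.17 in WT and -0.22 in TASTPM became 0.06 and 0.26 without those libraries, and those of Mef2c, -0.38 and -0.21, became -0.12 and 0.12. Runx1 was at 1692 to 2167 in WT Control ST and 1220 to 2103 in WT K/BxN ST, and at 1670 to 3012 and 1375 to 3065 in TASTPM. Its log2 fold changes were -0.12 (interval -0.75 to 0.52) and -0.19 (interval -0.82 to 0.44), and 0.17 and 0.24 without the libraries with high Lyz2. Mef2a shares 1081 exonic bases with Lysmd4 on the opposite strand, which is in the table.

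**Figure D3:**
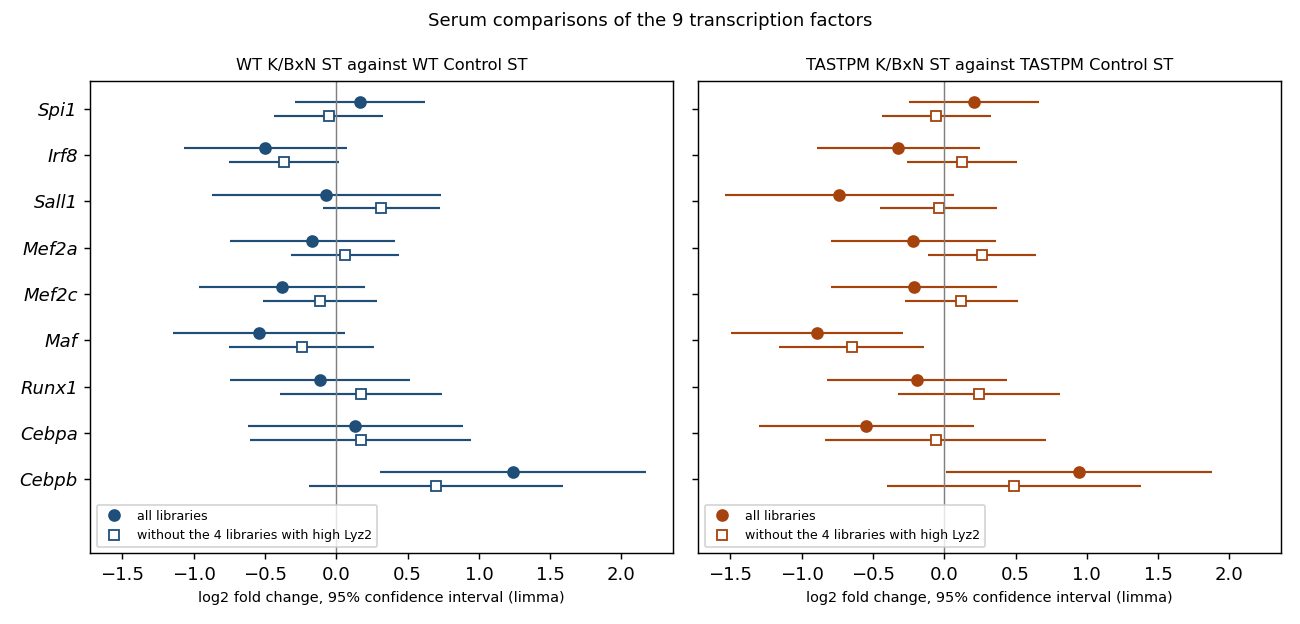
log2 fold changes of K/BxN ST against Control ST with 95% confidence intervals from limma, for WT and TASTPM, over all libraries (circles) and without the 4 libraries with high Lyz2 (squares). Cebpb is farthest to the right in both genotypes, at 1.24 and 0.95, among the circles Maf is farthest to the left, at -0.54 and -0.89, and of the squares only Maf in TASTPM has an interval that leaves out 0.

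The interaction of genotype and serum asks whether the response to K/BxN serum differed between the genotypes. No factor was called, and the share of all genes called was 0%. The largest differences were those of Cebpa, -0.68 (SE 0.50, interval -1.74 to 0.39), and Sall1, -0.66 (SE 0.53, interval -1.80 to 0.47), both with a limma adjusted p of 0.999. For Cebpb it was -0.29 (interval -1.61 to 1.03) and for Maf -0.35 (interval -1.21 to 0.50). Without the libraries with high Lyz2 the order was another, with Irf8 at 0.49 (interval -0.06 to 1.03), Maf at -0.41 (interval -1.13 to 0.31), Sall1 at -0.36 (interval -0.93 to 0.22) and Cebpa at -0.23 (interval -1.32 to 0.87). Without TASTPM K/BxN ST 1 alone, Maf was at -0.096, Sall1 at -0.30 and Cebpa at -0.38. A difference in the Maf response between WT and TASTPM was therefore not shown, although Maf did not overlap between the sera only in TASTPM.

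Under control serum, TASTPM microglia were compared with WT microglia to ask how the genotypes differ without arthritis. These groups also differed in other RNA. The score of Xist against Y-linked genes was 11.7, 11.8 and -1.33 in TASTPM and -7.15, -3.63 and 3.12 in WT, and the red cell genes, with a median log2 fold change of -3.03, had 4 of 5 lower at an unadjusted p under 0.05. The sex-linked signal was thus not balanced between the genotypes, and the part of red cell RNA was not tested. No factor was called, where the share of all genes was 0%, and no factor had an unadjusted p under 0.05, against 704 of all genes tested. Irf8 was at 10027, 7349 and 8892 in TASTPM and at 10935, 11660 and 14186 in WT. The groups did not overlap, as was so in this direction for 4.71% of all genes tested, and the log2 fold change was -0.49 (SE 0.29, interval -1.10 to 0.12, limma adjusted p = 0.901). None of these 6 libraries had high Lyz2. Cebpb was at 1269, 3213 and 2758 against 1540, 1252 and 796, with 2 of the 3 TASTPM libraries above all WT libraries (no factor had all 3 above, against 4.97% of all genes) and a log2 fold change of 0.96 (interval -0.04 to 1.96, limma adjusted p = 0.883). Mef2c was at 8997, 10774 and 8317 against 9994, 14318 and 13230, a log2 fold change of -0.41 (interval -1.03 to 0.21). When the 4 libraries with high Lyz2, which add to the common estimate of spread, were left out of the fit, these fold changes stayed as they were and the intervals became narrower, -0.83 to -0.14 for Irf8, 0.16 to 1.75 for Cebpb and -0.77 to -0.05 for Mef2c. The unadjusted p of these 3 was then under 0.05, as for 771 of all genes, and their limma adjusted p was 0.655, 0.768 and 0.786. With the sex-linked score as a covariate the fold changes were -0.65 for Irf8, 1.49 for Cebpb and -0.63 for Mef2c, and the limma adjusted p was 0.79, 0.509 and 0.797. The Control ST libraries are shared with the serum comparisons, so these values are not independent of those above.

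Under K/BxN serum no factor was called between the genotypes, the share of all genes being 0%, and 241 of all genes tested had an unadjusted p under 0.05. The largest differences of TASTPM from WT were those of Cebpb, 0.66 (interval -0.20 to 1.53), and Sall1, -0.61 (interval -1.36 to 0.13). Each of these groups holds 2 libraries with high Lyz2, and without them the differences were 0.75 (interval -0.23 to 1.72) for Cebpb, 0.41 (interval -0.21 to 1.03) for Runx1 and -0.31 (interval -0.75 to 0.14) for Sall1. Without TASTPM K/BxN ST 1 alone, Cebpb was at 0.36 and Sall1 at -0.25, and without WT K/BxN ST 4 alone Cebpb was at 0.42. In 2-sided exact permutation tests of single factors over the libraries, the smallest p was 0.0571 for 4 against 3 and 0.1 for 3 against 3, which are the smallest values that doubling the smaller tail can give. They were reached by Cebpb and Irf8 in WT, by Maf in TASTPM and by Irf8 between the Control ST groups, and over the 36 tests the smallest adjusted p was 0.686. Counting absolute differences instead, a choice made after seeing the data, the exact permutation p was 0.0286, the smallest this count can give for 4 against 3, for Irf8 in WT and Maf in TASTPM, and the smallest adjusted p was 0.514.

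Ratios within a library do not depend on how libraries were scaled. They were taken from normalized counts, not per length, and serve to compare libraries. The log2 ratio of Mef2c to Mef2a was 0.48, 0.49 and 0.56 in the 3 WT Control ST libraries and 0.07, 0.16 and 0.04 in those of TASTPM Control ST. The groups were 0.43 apart and did not overlap, with the smallest p of 3 against 3 (exact permutation test, p = 0.1, adjusted p = 0.5 over 20 tests). In WT K/BxN ST it was 0.09, 0.46, 0.37 and 0.30, below every WT Control ST library (difference -0.21, exact permutation p = 0.0571, adjusted p = 0.5), while in TASTPM K/BxN ST it was 0.03, 0.46, -0.05 and -0.06, around the TASTPM controls. Without the libraries with high Lyz2 the differences between the sera were -0.18 in WT and -0.14 in TASTPM. Per length (RPKM), Cebpb exceeded Cebpa in all 14 libraries, by 1.83 to 4.50 times in Control ST and 2.65 to 36.9 times in K/BxN ST, where the highest, 36.9 and 11.6 times, belonged to libraries with high Lyz2. The log2 ratio of their normalized counts was 1.11 higher in WT K/BxN ST than in WT Control ST and 1.49 higher in TASTPM K/BxN ST than in TASTPM Control ST, and the groups overlapped in both (exact permutation test, p = 0.171 and adjusted p = 0.5 in each). Without the libraries with high Lyz2 these differences were 0.53 and 0.55. The log2 ratio of Irf8 to Spi1 was below 0 only in those 4 libraries, at -0.03 to -1.45, and between 0.03 and 0.97 in the other 10. Between the sera this ratio differed by -0.66 in WT (exact permutation p = 0.114, adjusted p = 0.5) and by -0.53 in TASTPM (exact permutation p = 0.457, adjusted p = 0.653), with overlapping groups, and without the libraries with high Lyz2 by -0.31 in WT and, in the other direction, by 0.18 in TASTPM. The ratio of Runx1 to its partner Cbfb was likewise lowest in those 4, at -0.54 to 0.21 against 0.44 to 1.59.

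**Figure D4:**
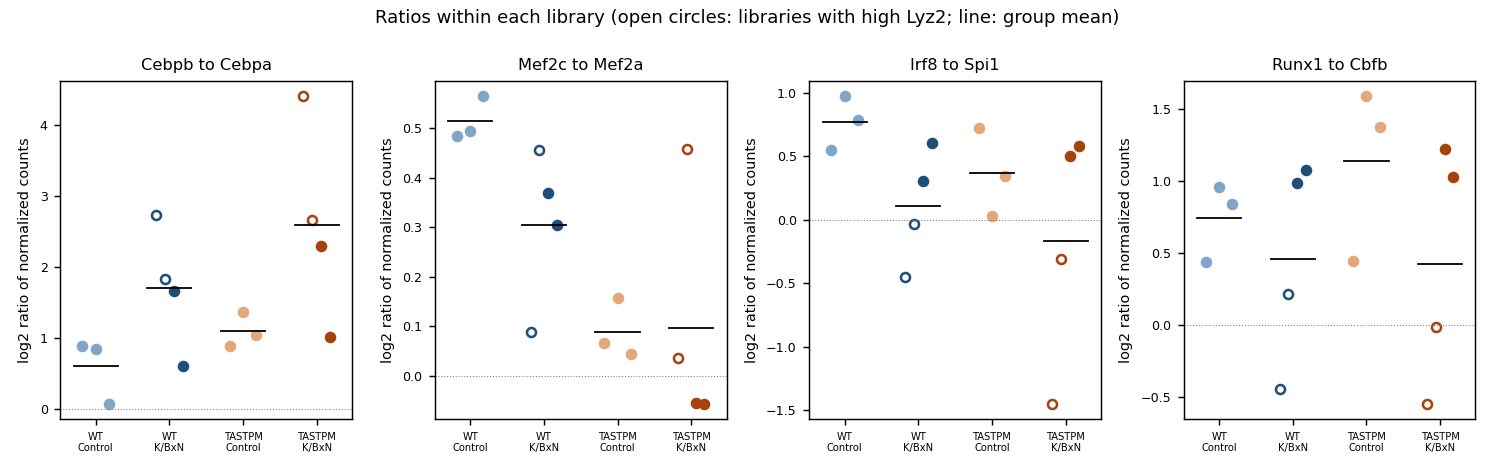
log2 ratios of normalized counts within each library (vertical axes) for 4 pairs of factors, by group, with lines at the group means and open circles for the libraries with high Lyz2. The ratio of Mef2c to Mef2a lies at 0.48 to 0.56 in WT Control ST and at 0.04 to 0.16 in TASTPM Control ST.

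The relatives and targets of the factors were taken from lists. Of 29 paralogs and partners, 24 were in the table and 20 were tested, and none was called in any comparison. Spib and Spic, the closest relatives of Spi1, were not in the table, and Cebpe was at 0 in the 10 libraries without high Lyz2. Irf5 and Irf9 were among the 3 with the highest counts. Sall2 had the smallest p in WT (0 to 26 in Control ST, 48 to 178 in K/BxN ST), and Runx2 in TASTPM (0 to 3 and 26 to 94), both at low counts. In the other genotype their log2 fold changes were 0.52 (Sall2 in TASTPM) and -0.53 (Runx2 in WT), and without the libraries with high Lyz2 they were 1.28 and -3.53. Irf7, an interferon-induced factor, was at 1268 to 1752 in the 4 libraries with high Lyz2 and at 0 to 387 in the other 10. Of 63 other microglia and macrophage factors, 56 were tested and none was called. At an unadjusted p under 0.05 over all libraries, 4 of the 56 were higher and none lower in WT K/BxN ST, against 7.13% of all genes in either direction, while 2 were higher and 3 lower in TASTPM K/BxN ST, against 4.22%. Klf2, a factor of quiescent myeloid cells, was at 634 to 752 in WT Control ST and 1175 to 2469 in WT K/BxN ST (log2 fold change 1.33, SE 0.30, limma adjusted p = 0.374), and at 1225 to 1907 and 1117 to 2357 in TASTPM. Klf4 was at 0 in the 3 WT Control ST libraries and at 5 to 231 in WT K/BxN ST, while in TASTPM it was at 84 to 101 and 39 to 338 and overlapped between the sera. In TASTPM the smallest p values were those of Rel, an NF-kB subunit (998 to 1141 in Control ST, 551 to 796 in K/BxN ST), and Junb (2251 to 3116 and 3347 to 6113), whose log2 fold changes of -0.73 and 0.72 stood against 0.26 and -0.11 in WT. The interaction of genotype and serum was not called by limma for any gene of these lists. Klf6, Nfe2l2 and Fli1 had the highest counts among these factors.

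Genes that depend on Sall1, the homoeostatic set of microglia, had lower mean values in K/BxN ST when all libraries were counted. All 26 on the list were tested, and 26 of 26 had a negative log2 fold change in WT (median -0.46, against 0.06 over all genes) and 25 of 26 in TASTPM (median -0.47, against 0.01), but none was called. Without the libraries with high Lyz2 the medians were -0.09 in WT, with 19 of 26 below 0, and 0.17 in TASTPM, with 9 of 26 below 0. Adora3 and Ecscr had the smallest p values in TASTPM, Adora3 at 1567 to 1822 in Control ST and 460 to 1326 in K/BxN ST. In WT, 7 of the 26 did not overlap between the sera and lay lower, against 3.71% of all genes tested. With only the 2 WT K/BxN ST libraries without high Lyz2 this count could not fall, and it was 7, against 8.84% of all genes. In TASTPM 1 of the 26 (Adora3) lay lower without overlap, against 2.74% of all genes. With only the 2 TASTPM K/BxN ST libraries without high Lyz2 there were 2 higher, against 9.46% of all genes. The count of lower genes, which could not fall here either, was 1, against 9.32%.

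All 40 target genes of Spi1 and Irf8 were tested and none was called, with medians of -0.12 in WT and -0.09 in TASTPM, and of -0.06 and 0.02 without the libraries with high Lyz2. Cst3, Ctss and Csf1r had the highest counts of this list. Fcgr1, the high-affinity IgG receptor, was at 9748 to 10235 in WT Control ST and 4991 to 7779 in WT K/BxN ST (log2 fold change -0.71, SE 0.26, limma adjusted p = 0.642), and the log2 fold change was -0.46 without the libraries with high Lyz2. Cybb, the catalytic subunit of the phagocyte oxidase, was at 174 to 703 and 588 to 28501. Its 2 highest values, 21434 and 28501, were those of the libraries with high Lyz2, and the log2 fold change of 3.67 was 1.22 without them. In TASTPM the log2 fold changes were -0.55 for Fcgr1 and 2.99 for Cybb, or -0.34 and 0.59 without those libraries. Of 26 Cebpb target genes, 18 were tested and none was called, and the medians were 0.36 in WT and 0.59 in TASTPM. They became -0.04 and -0.14 without the libraries with high Lyz2. On this list 7 of the 26 genes are also monocyte or neutrophil markers, among them Lyz2, Chil3 and Ngp. Msr1, a scavenger receptor outside those markers, was at 0 to 55 in WT Control ST and 37 to 2481 in WT K/BxN ST, and Il6 was at 215 to 416 and 54 to 232. Their log2 fold changes of 5.94 and -1.26 were 3.04 and -0.63 without the libraries with high Lyz2, and in TASTPM the values were 2.80 and -1.03, or -0.44 and -0.39 without them.

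**Figure D5:**
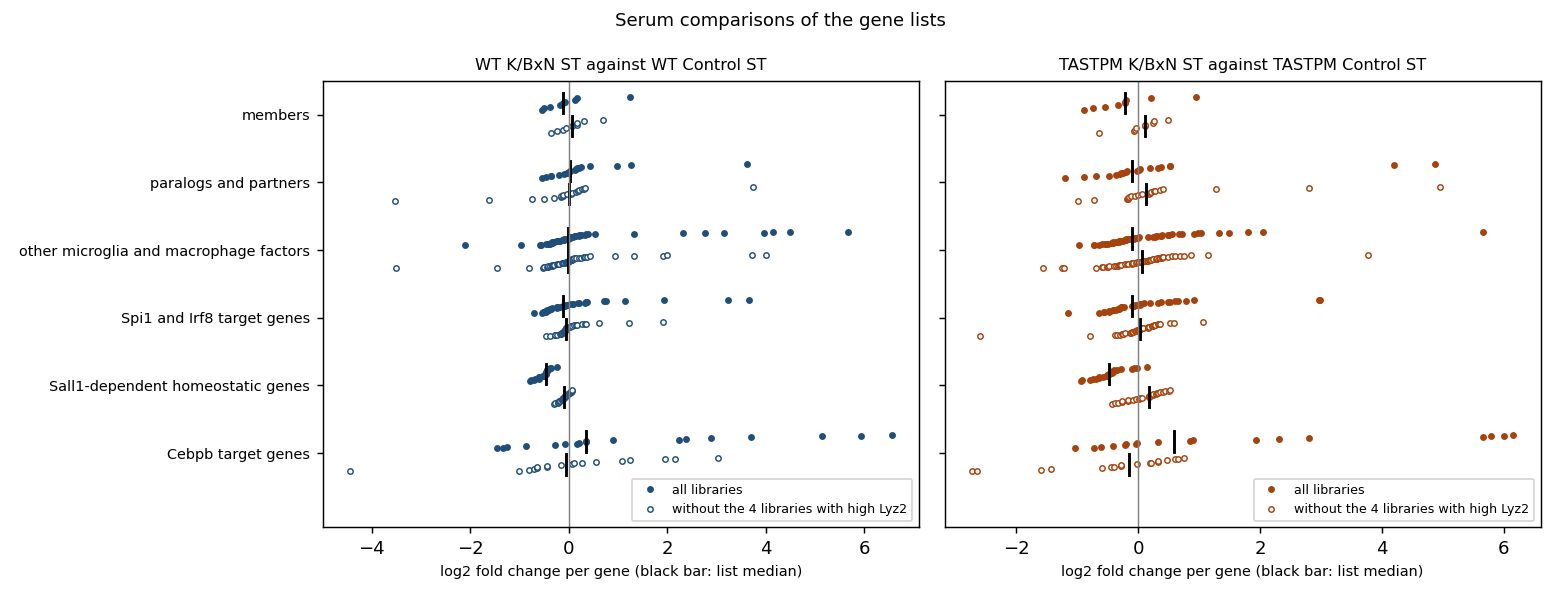
log2 fold changes of K/BxN ST against Control ST (horizontal axes) for each tested gene of the factors (members) and 5 lists of relatives and targets, in WT and TASTPM, over all libraries (filled) and without the 4 libraries with high Lyz2 (open), with black bars at list medians. The Sall1-dependent genes have medians of -0.46 and -0.47 over all libraries and -0.09 and 0.17 without those 4.

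Among the 10 libraries without high Lyz2, the factors varied together in part. Pearson's r of log2 values over these 10 libraries of 4 groups was 0.86 for Runx1 and Cebpb, -0.85 for Irf8 and Cebpb and -0.60 for Irf8 and Runx1, and lay between -0.53 and 0.58 for the other pairs. The genes most like each factor were picked among 9341 genes with a mean of at least 100 normalized counts, so each is the highest of many values. The first were Dok3, an adaptor of immune signalling, for Cebpb (r = 0.96), Dock11 for Mef2a (0.95), Bmi1, a Polycomb subunit, for Sall1 (0.94), Adipor2 for Cebpa (0.93), Crat for Spi1 (0.93), Heatr5a for Runx1 (0.93), AI987944 for Irf8 (0.91), Tcea1-ps1 for Maf (0.90) and Papola for Mef2c (0.87). The third for Irf8 was P2ry13, a purine receptor of homoeostatic microglia (r = 0.91, and 0.97 over all 14 libraries). Dok3 kept an r of 0.94 with Cebpb over all 14 libraries, while for Dock11 and Mef2a it was 0.12. The points share the scaling of their library, and these values are a description without a test.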

How the data were processed

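Bulk RNA-seq of sorted dorsal horn microglia comprised 14 libraries in 4 groups. The labels' processing notes name HISAT2 2.1, featureCounts 1.5.2 and the GRCm39 build. The values that the authors deposited are normalized counts, a signal obtained by dividing reads by a single factor per library, and every value was within 0.1 reads of a whole read (100% of values), so whole reads were recovered. Of 14336 entries, 7 repeats were left out. Libraries of TASTPM K/BxN ST carry the numbers of the labels, and the others are numbered by the order of their columns, whose names do not follow the labels.

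Values were analysed as log2(normalized count + 1), which understates changes of genes with few reads. A gene was tested where 7 or more of the 14 libraries had 10 or more reads, which left 12645 genes. The test was limma-trend (limma 3.58.1, R 4.3.3) with the means of the 4 groups in 1 model, and p values were adjusted by Benjamini-Hochberg over all genes tested. Because the deposited unit is no count, edgeR 4.0.16 and DESeq2 1.42.0 on the recovered reads served as alternatives. Single factors and ratios were also compared by 2-sided exact permutation tests (scipy 1.17.1). Tested on simulated data of the WT serum comparison, limma called 85 of 200 genes (42.5%) changed by 2 on the log2 scale among 12645, with 2 false calls. The simulated spread was that of the Control ST libraries alone, and the changed genes were drawn at random from all genes tested. The share is therefore not the power for the factors or for groups that hold libraries with high Lyz2. Libraries with Lyz2 above 10 times the median were given apart. P values measure the spread between these samples, for which the labels name no animal.

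Genes named from the lists were the 3 with the highest mean, the 2 with the smallest limma p in each serum comparison and any called. Some genes under these rules, and 1 of 5 ratios computed, are not reported here, while counts and adjusted p values still include them. The factors and lists were chosen with earlier results of these data known. Positions, lengths and promoters are from GRCm39 with the GENCODE annotation, and reads of overlapping genes on opposite strands cannot be told apart unless strand was used in counting, which is not given in the sources used here.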

Additional observations from a re-analysis of the deposited data

Results flagged for a closer look

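Maf in TASTPM K/BxN ST held 1 library far from the others. Its normalized counts were 942 in library 1 and 1882 to 1957 in the other 3, and the gap made up 0.947 of the range of the log2 values, above Dixon's critical value at 95% for 4 libraries. Library 1 is one of those with high Lyz2. Of the 18 groups of 4 libraries examined (9 factors in the 2 K/BxN ST groups), this was the only one past that value, and chance gives about 1 in 20. Without library 1 the log2 fold change of Maf in TASTPM was -0.64 in place of -0.89 (limma, uncalled).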

How the results depend on the processing

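No factor was called under any of the 32 alternatives, of which a fit of the 2 groups alone has no interaction. Of 861 recomputed values of 27 fold changes (all 9 factors in the serum comparisons, the 3 with the smallest p in each other comparison), 825 kept their direction. With the monocyte and neutrophil score as a covariate, K/BxN ST against Control ST turned to -0.10 (Spi1), 0.48 (Sall1), 0.20 (Mef2a) and 0.25 (Runx1) in WT, and to -0.066 (Spi1), 0.0014 (Irf8), 0.18 (Mef2a), 0.14 (Mef2c) and 0.19 (Runx1) in TASTPM. Without the 4 libraries with high Lyz2 it turned to -0.052 (Spi1), 0.32 (Sall1), 0.063 (Mef2a) and 0.17 (Runx1) in WT, and to -0.055 (Spi1), 0.12 (Irf8), 0.26 (Mef2a), 0.12 (Mef2c) and 0.24 (Runx1) in TASTPM. Scaled to the microglia markers, an alternative chosen after seeing the data, it turned to 0.074 (Irf8), 0.50 (Sall1), 0.40 (Mef2a), 0.19 (Mef2c), 0.031 (Maf) and 0.46 (Runx1) in WT, and to 0.29 (Irf8), 0.39 (Mef2a), 0.40 (Mef2c), 0.42 (Runx1) and 0.063 (Cebpa) in TASTPM. The scaling to the microglia markers moved the median of all genes to 0.62 in WT and 0.61 in TASTPM. With the sex-linked score as a covariate, Mef2a (0.027) and Mef2c (0.010) turned in TASTPM. The cause was not tested. Leaving out single libraries gave -0.23 to 0.13 for Sall1 and -0.22 to 0.045 for Runx1 in WT (sign changed without K/BxN ST 1), and -0.38 to 0.0051 for Mef2a, -0.33 to 0.032 for Mef2c (both without K/BxN ST 1) and -0.43 to 0.0012 for Runx1 (without K/BxN ST 2) in TASTPM. Cebpb stayed at 0.70 to 1.81 in WT and 0.40 to 1.56 in TASTPM over all alternatives, with an adjusted p of 0.0940 to 1 and of 0.583 to 1.00, and Maf in TASTPM at -0.99 to -0.28, with an adjusted p of 0.257 to 1.00.

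Over all genes, DESeq2 called 127 in the WT serum comparison, 16 in TASTPM, 12 for the interaction and 41 between the Control ST groups, and 275, 88, 36 and 84 with no filter on low counts. The 1 gene called by limma in WT became 0 with a pseudocount of 10, at least 10 reads in all libraries, the 2 groups alone, the monocyte and neutrophil covariate, voom, edgeR or without the libraries with high Lyz2, and 2 with no trend. Between the Control ST groups 1 gene was called with either covariate and without the libraries with high Lyz2. Leaving out single libraries gave 0 to 17 genes in WT, 0 to 1 in TASTPM, 0 to 3 for the interaction and 0 to 11 between the Control ST groups. No paired analysis was possible because the replicate numbers of the labels are not shared between groups. A change had to exceed 1 on the log2 scale to be called, and in the simulation limma called 42.5% of changes of 2, so an uncalled factor may still differ.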
